A study of Mus musculus with 4 samples.

Results

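The genes described here encode the proteasome, its activators and the chaperones that build it. They were taken from the deposited tables by gene name: the Psma, Psmb, Psmc, Psmd, Psme, Psmf and Psmg symbols followed by a number, without pseudogenes, plus Pomp. The rule found 50 genes among 47445 gene identifiers, all of them protein coding in GENCODE M21. By class they were 8 core alpha genes (Psma), 11 core beta genes (Psmb), 6 ATPases (Psmc), 14 lid and base genes (Psmd), 6 activator and inhibitor genes (Psme and Psmf1) and 5 chaperone genes (Psmg and Pomp). A filter of at least 1 FPKM (fragment number divided by transcript length and by library size) in at least 2 libraries was passed by 47 of them. Psma8, Psmb8 and Psmb11 did not pass, and Psmg4 passed through the controls alone.

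RNA came from late 2-cell embryos of C57BL/6N mice, with 2 libraries of embryos given siRNA against Uqcc3 and 2 control libraries. Uqcc3 encodes a protein needed to assemble complex III of the respiratory chain in mitochondria. Per the labels' protocols, the females were 8 weeks old, the siRNA was injected at 5 µM and 8 hpi, and controls were given a negative-control siRNA at 5 µM, also at 8 hpi. The controls' treatment label instead reads "none". Embryos of normal appearance were collected, per the labels' protocols, and how many went into each library is not stated. Replicate numbers follow accession order and are names only. Sample titles end differently in the siRNA and control groups, so a batch that these endings might mark cannot be told apart from the treatment. The labels do not say whether the 2 libraries of a group are of separate litters or injections, so p-values rest on a spread between libraries that may be technical only.

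The proteasome degrades proteins tagged with ubiquitin. Its core particle is a barrel of alpha and beta subunit rings, with the peptide-cutting sites inside on Psmb5, Psmb6 and Psmb7. The regulatory particle caps the barrel: its base holds the ring of Psmc ATPases that unfolds substrates, and its lid carries Psmd14, the enzyme that cuts ubiquitin off. Other activators (Psme1 to Psme4) open the barrel in place of the regulatory particle, and dedicated chaperones assemble each piece. In early mouse embryos, proteasomes take part in clearing proteins inherited from the egg.

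The 250 bases upstream of the annotated start are shown for 3 members on which the comparison turns: Psmb5 and Psma7, with the smallest p-values among the core genes, and Psmd4, with 1 siRNA library below the controls and 1 above. Sequences are from RefSeq (GRCm38.p6) and run 5′ to 3′ on the gene's strand.
Psmb5 chr14:54617996-54618245 (- strand): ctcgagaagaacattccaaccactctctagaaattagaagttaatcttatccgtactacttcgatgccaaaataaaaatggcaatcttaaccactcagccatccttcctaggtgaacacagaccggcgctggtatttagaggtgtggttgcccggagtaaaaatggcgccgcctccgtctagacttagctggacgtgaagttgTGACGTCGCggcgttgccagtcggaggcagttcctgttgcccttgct
Psma7 chr2:180042465-180042714 (- strand): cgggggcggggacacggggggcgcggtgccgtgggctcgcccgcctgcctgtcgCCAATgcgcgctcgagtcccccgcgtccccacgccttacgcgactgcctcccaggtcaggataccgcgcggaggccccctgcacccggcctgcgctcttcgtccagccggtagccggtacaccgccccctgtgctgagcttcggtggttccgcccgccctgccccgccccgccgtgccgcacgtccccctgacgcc
Psmd4 chr3:95042615-95042864 (- strand): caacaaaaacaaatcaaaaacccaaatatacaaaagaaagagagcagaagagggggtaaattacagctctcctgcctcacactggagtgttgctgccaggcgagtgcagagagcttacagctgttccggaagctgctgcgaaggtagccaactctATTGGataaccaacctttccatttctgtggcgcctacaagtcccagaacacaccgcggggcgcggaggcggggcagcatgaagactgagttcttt
Capitals mark a TGACNNNGC match, the core of the antioxidant response element that the proteasome regulator Nfe2l1 can bind, or a CCAAT match, the box bound by NF-Y. Both strands were searched, so the capitals in Psmd4 are the reverse complement of CCAAT. No match of one motif overlapped a match of the other in the members' windows.

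Among 45 windows of 42 members, TGACNNNGC was present in 5 (11.11%), those of Psmb5, Psmb6, Psmc6, Psmd9 and Psmd12. It was present in 10.16% of all 32851 windows of the same length. CCAAT was present in 14 windows of members (31.11%) and in 33.85% of all windows. The 5 tested members with TGACNNNGC had a median log2 difference between siRNA and control libraries of -0.65, and the 35 without it had -1.04. For CCAAT the medians were -1.05 in 13 members with it and -0.96 in 27 without it. For both motifs the share in the members' windows was close to that in all windows, and a match is only a stretch of letters.

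The deposited error bounds implied about 11200000 and 11600000 fragments in siRNA replicates 1 and 2, and 16100000 and 18200000 fragments in control replicates 1 and 2. Uqcc3 itself stood at 23.7 and 19.8 FPKM in the siRNA libraries, against 147 and 211 FPKM in the controls, 12.1% of the control mean. siRNA replicate 2 stood apart: genes with at least 1 FPKM numbered 9771 there, 12073 in siRNA replicate 1, and 12202 and 11818 in the controls. Over the 47 tested members, which share each library's depth, its log2 values correlated at 0.59 to 0.64 with each other library, while the remaining 3 libraries correlated at 0.84 to 0.91. Summed 2-cell embryo markers (16 of 17 listed) came to 851 and 490 FPKM in the siRNA libraries, against 1280 and 1660 FPKM in the controls, and 10 oocyte markers to 1694 and 1362 FPKM, against 1758 and 2059 FPKM. Oosp1 made up most of the oocyte sum. The other 9 came to 293 and 503 FPKM in the siRNA libraries, against 234 and 264 FPKM in the controls, with Bmp15, Nlrp5 and Tle6 above both controls and Zp3 below both controls in both siRNA libraries. Summed levels of 10 blood and immune markers were 36.2 and 9.68 FPKM in the siRNA libraries and 35.1 and 38.1 FPKM in the controls, with Hbb-bs and Tyrobp at 0 throughout. For 10 cumulus and granulosa markers the sums were 19.4 and 24.7 FPKM, against 17.8 and 19.03 FPKM, with Amh and Fshr at 0. Nr5a2 made up most of these sums, at 14.9 and 23.9 FPKM in the siRNA libraries, against 16.4 and 18.99 FPKM in the controls. For 9 sperm markers the sums were 47.1 and 22.6 FPKM, against 26.5 and 40.3 FPKM, with Akap4 at 0. Ldhc was the highest sperm marker in each library, at 21.3 and 22.4 FPKM, against 15.9 and 17.9 FPKM in the controls. The part of these markers in the results was not tested. In whole-embryo RNA, fewer cells of a type and less RNA per cell cannot be told apart.

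Most proteasome genes were abundant and stood lower in the siRNA libraries than in the controls, without any passing the adjusted test. In the controls 12 members averaged above 100 FPKM, 29 stood between 10 and 100, 6 between 1 and 10, and 3 under 1. The highest was Psmb2 at 446 ± 134 FPKM (SD, n = 2) and the lowest tested member Psmb9 at 1.30 FPKM. limma (log2 of FPKM + 1, all 12390 tested genes, Benjamini-Hochberg) called 0 of 47 members, with a smallest adjusted p of 0.745, and called 0% of all tested genes. Uqcc3, the siRNA target, was not called either, with a log2 difference of -2.97 (SE 0.63, limma adjusted p = 0.745). The absence of calls is therefore not evidence that members were unchanged. With 2 libraries against 2, an exact two-sided permutation test cannot go below 0.333.

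At an unadjusted p under 0.05, 7 members were lower in siRNA libraries (14.9%) and 0 were higher, where the share of all tested genes was 5.21% lower and 0.743% higher. The 7 were Psmb5, Psma7, Psmc2, Psme1, Psmg4, Psmb3 and Psmb2. Both siRNA libraries lay below both controls for 26 of 47 members (55.3%), against 30.0% of all tested genes. Without Psmg4, which passed the filter through the controls alone, these counts were 6 and 25 of 46. Both lay above both controls for 1 tested member, Psmd13 (2.13%), against 8.60% of all tested genes, and the groups overlapped or split for the other 20. The members' median log2 difference was -0.92, where that of all tested genes was -0.39. Members were also more abundant, with a median control level of 42.2 FPKM, against 7.45 FPKM for all tested genes of known length. With a filter at 5 FPKM, 25 members (55.6%) had both siRNA libraries below both controls, against 34.8% of all tested genes. A shift between the controls was also present, since control replicate 2 stood below control replicate 1 for 33 of 47 members, with a median difference of -0.38 for members and -0.10 for all tested genes.

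**Figure D1:**
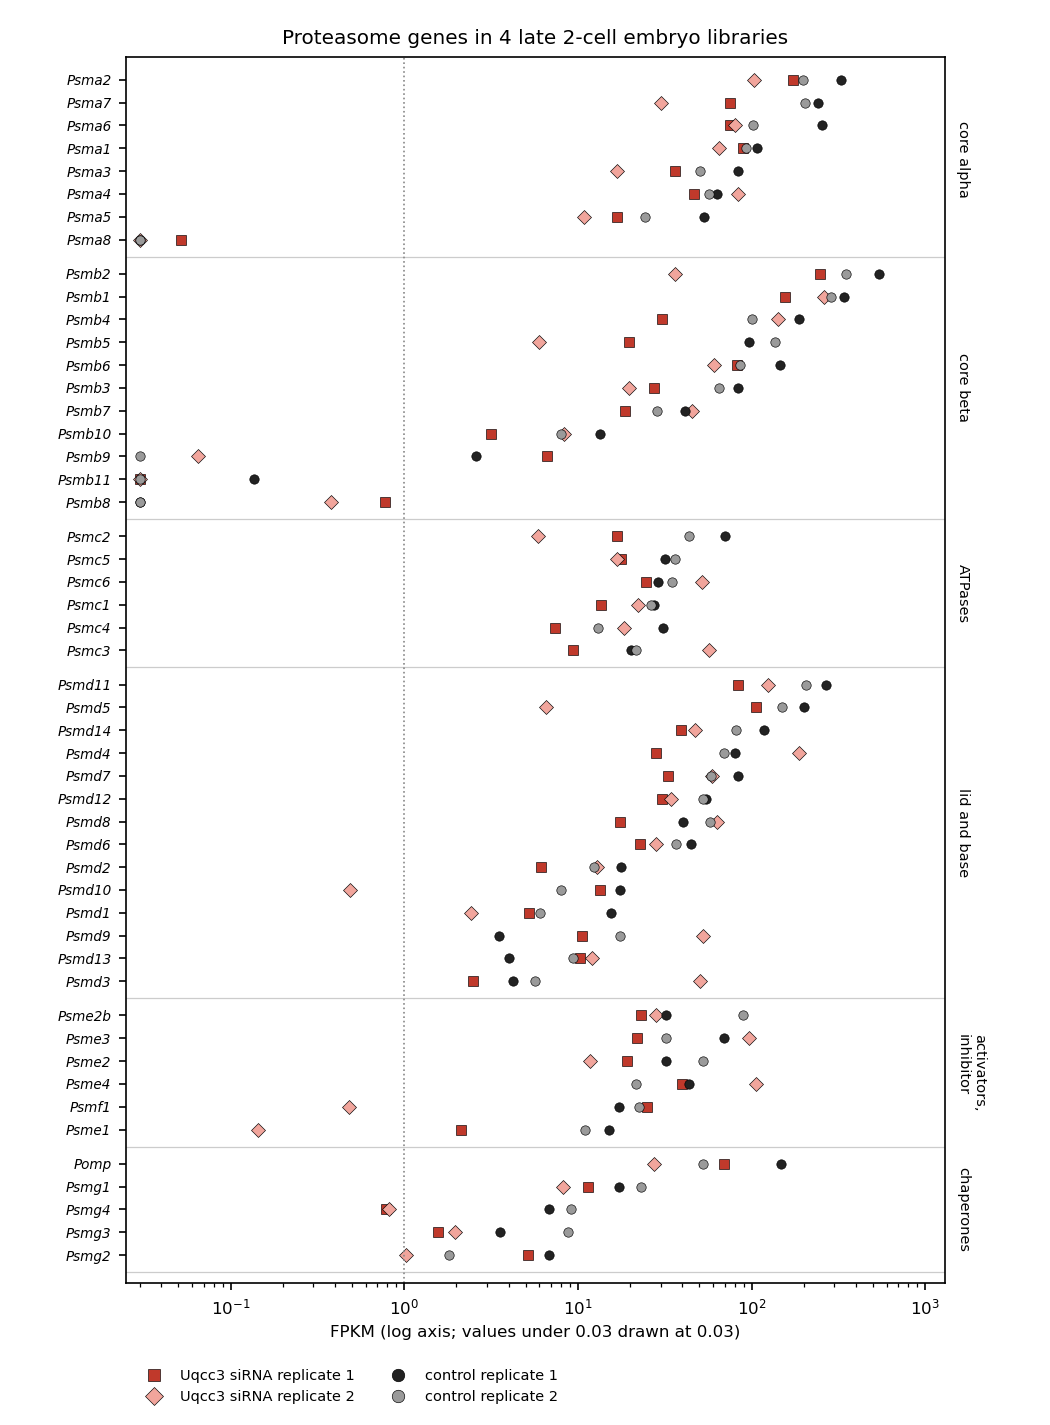
FPKM of each of the 50 genes (log axis) in the 2 Uqcc3 siRNA libraries (squares and diamonds) and the 2 control libraries (circles), grouped by class and ordered by control mean. Both siRNA points lie to the left of both control points for 26 of the 47 tested members, and siRNA replicate 2 is the more scattered.

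The alpha subunits form the outer rings of the barrel and its gate. Of 7 tested members, 6 (85.7%) had both siRNA libraries below both controls, against 30.0% of all tested genes. Psma7 stood at 75.4 and 30.1 FPKM in the siRNA libraries, against 241 and 202 FPKM in the controls (52.7 ± 32.0 and 222 ± 27.2 FPKM, SD, n = 2 each). The groups were far apart, and the log2 difference was -2.19 (SE 0.68, limma adjusted p = 0.745). The gene lies on chromosome 2 (mm10, chr2:180036374-180042433, minus strand), and its upstream window holds the CCAAT match. Psma3 stood at 36.5 and 16.8 FPKM in the siRNA libraries, against 83.2 and 50.4 FPKM in the controls, a log2 difference of -1.35 (SE 0.73, limma adjusted p = 0.745). Psma5 stood at 16.9 and 10.9 FPKM in the siRNA libraries, against 53.4 and 24.3 FPKM in the controls, also a log2 difference of -1.35 (SE 0.78, limma adjusted p = 0.745). For both, the 2 controls differed from each other by more than the lower control differed from the higher siRNA library.

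Psma6 stood at 75.0 and 80.0 FPKM in the siRNA libraries, against 256 and 101 FPKM in the controls, with a log2 difference of -1.05 (SE 0.68, limma adjusted p = 0.750). Its siRNA libraries were close to each other, and its controls were the wider pair. Psma2 was lower in both siRNA libraries at 174 and 104 FPKM, against 329 and 197 FPKM in the controls. Psma1 was also lower in both, at 89.8 and 64.9 FPKM, against 108 and 93.4 FPKM in the controls. The log2 difference of Psma1 was -0.39 (SE 0.61), and its sign turned under the other scalings, as given below. Psma4 was the exception, at 46.6 FPKM in siRNA replicate 1 and 83.4 FPKM in siRNA replicate 2, on either side of controls at 63.0 and 57.3 FPKM. Psma8, the testis form of Psma7, was listed at 0.052 FPKM in siRNA replicate 1 and at 0 in the other 3 libraries.

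Psma3, Psma4 and Psma5 have near-identical annotated copies that could share their reads. Gm13835, a processed pseudogene identical to Psma3 over 665 bases, was listed at 161 and 137 FPKM in the siRNA libraries, against 345 and 277 FPKM in the controls, more than Psma3 itself. With its copies added, Psma3 came to 202 and 154 FPKM in siRNA libraries, against 433 and 335 FPKM in controls, a log2 difference of -1.11 (limma adjusted p = 0.745). The copies held 82.0% and 89.1% of that sum in the siRNA libraries and 80.8% and 85.0% in the controls, so the gene's own value is a small part of what its sequence collects. For Psma5, the copies Gm8394 and Gm12989 held 61.9% and 10.1% of the sum in the siRNA libraries, against 64.4% and 67.0% in the controls. The summed Psma5 level was 44.2 and 12.1 FPKM in the siRNA libraries, against 150 and 73.7 FPKM in the controls, and its log2 difference was -2.13 (limma adjusted p = 0.745), larger in size than without the copies. For Psma4, adding the pseudogene Gm6542 gave 52.7 and 90.5 FPKM in the siRNA libraries, against 73.1 and 69.6 FPKM in the controls, and turned the log2 difference to -0.045. Levels of these genes alone are therefore uncertain.

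**Figure D2:**
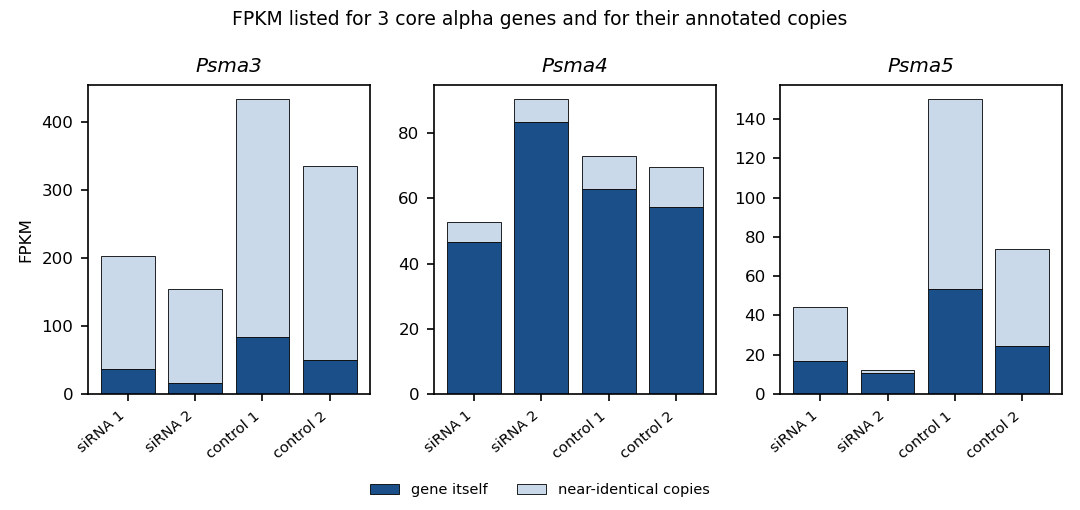
FPKM listed for Psma3, Psma4 and Psma5 (dark bars) and, stacked on them, for annotated copies at least 95% identical over at least 200 bases (light bars), in each siRNA and control library. The copies hold 80.8% to 89.1% of the Psma3 sum, but 10.1% of the Psma5 sum in siRNA replicate 2 against 61.9% to 67.0% in the other 3.

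Among the beta subunits, which line the inner rings, Psmb5 was the lowest relative to its controls. Psmb5 carries the chymotrypsin-like site, has the TGACNNNGC match upstream, and lies on chromosome 14 (mm10, chr14:54614119-54618022, minus strand, 3 exons). These gene coordinates are from GENCODE, whose start lies inside the upstream window, which was set from the RefSeq start. It stood at 19.7 and 6.01 FPKM in the siRNA libraries, against 97.1 and 137 FPKM in the controls, which is 12.9 ± 9.69 and 117 ± 28.5 FPKM (SD, n = 2 each) or 10.98% of the control mean. The error bounds implied about 158 and 52 fragments in the siRNA libraries, against 814 and 1063 in the controls, so counting error is small beside the gap. The log2 difference was -3.27 (SE 0.78, limma adjusted p = 0.745), and the gene has no annotated copy within the identity limit.

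The other constitutive cutting subunits were less far from their controls. Psmb6, with the caspase-like site, stood at 82.0 and 61.1 FPKM in the siRNA libraries, against 145 and 85.8 FPKM in the controls, with a log2 difference of -0.65 (SE 0.63). Psmb7, with the trypsin-like site, stood at 18.6 FPKM in siRNA replicate 1 and 45.5 FPKM in siRNA replicate 2, around controls at 41.5 and 28.5 FPKM. Of the summed FPKM of Psmb5, Psmb6 and Psmb7, Psmb5 made up 16.4% and 5.34% in the siRNA libraries, against 34.2% and 54.6% in the controls. The 3 cutting subunits are needed in equal number in a finished core particle, and their mRNA levels were unequal in all 4 libraries.

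Their interferon-inducible counterparts, which form the immunoproteasome, had a summed level below that of the constitutive subunits in every library. Psmb10, which replaces Psmb7, stood at 3.18 and 8.35 FPKM in the siRNA libraries, against 13.5 and 8.00 FPKM in the controls, with overlap between the groups. Psmb9, which replaces Psmb6, stood at 6.64 and 0.065 FPKM in the siRNA libraries, against 2.604 and 0 FPKM in the controls, so each group held 1 library well above the other. Psmb8, which replaces Psmb5, was listed at 0.776 and 0.378 FPKM in the siRNA libraries and at 0 in both controls. The error bounds implied about 9 and 4 fragments for the siRNA values. The inducible subunits together made up 8.09% and 7.24% of all 6 in the siRNA libraries, against 5.37% and 3.08% in the controls. Their own sum was 10.6 and 8.79 FPKM in siRNA libraries and 16.1 and 8.00 FPKM in controls, while the constitutive sum was 120 and 113 FPKM, against 284 and 252 FPKM. The higher inducible share thus went with a lower constitutive sum. Psmb11, the thymus subunit, was listed at 0.136 FPKM in control replicate 1 and at 0 elsewhere.

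Of the structural beta subunits, Psmb2 and Psmb3 had unadjusted p-values under 0.05. Psmb2 stood at 248 and 36.1 FPKM in the siRNA libraries, against 541 and 351 FPKM in the controls, a log2 difference of -2.18 (SE 0.91, limma adjusted p = 0.745). Its siRNA libraries were both below the controls but far from each other. Psmb3 stood at 27.3 and 19.8 FPKM in the siRNA libraries, against 83.2 and 65.4 FPKM in the controls (23.5 ± 5.32 and 74.3 ± 12.6 FPKM, SD, n = 2 each), a log2 difference of -1.62 (SE 0.66, limma adjusted p = 0.745). Both groups were tight for Psmb3. Psmb1 was lower in both siRNA libraries at 156 and 261 FPKM, against 340 and 286 FPKM in the controls. Psmb4 stood at 30.7 FPKM in siRNA replicate 1 and 142 FPKM in siRNA replicate 2, against 187 and 101 FPKM in the controls, so the groups overlapped.

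All 6 Psmc ATPases stood below both controls in siRNA replicate 1, where 48.3% of all tested genes did. In siRNA replicate 2 this held for 3 of 6 (Psmc1, Psmc2 and Psmc5), near the 50.6% of all tested genes. Psmc2 stood at 16.9 and 5.91 FPKM in the siRNA libraries, against 69.9 and 43.7 FPKM in the controls (11.4 ± 7.76 and 56.8 ± 18.6 FPKM, SD, n = 2 each), 20.1% of the control mean. Its log2 difference was -2.34 (SE 0.80, limma adjusted p = 0.745). Psmc2 was the most abundant of the 6 in the controls and the lowest of the 6 in siRNA replicate 2, although the ATPases form a ring with 1 copy of each. Psmc5 stood at 17.7 and 16.8 FPKM in the siRNA libraries, against 31.8 and 36.3 FPKM in the controls, with both groups tight and a log2 difference of -0.94 (SE 0.71). Psmc1 stood at 13.6 and 22.3 FPKM in the siRNA libraries, against 27.4 and 26.3 FPKM in the controls. Psmc4 stood at 7.36 and 18.4 FPKM in the siRNA libraries, against 30.8 and 13.1 FPKM in the controls, with overlap.

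Psmc3 and Psmc6 lay below the controls in siRNA replicate 1 but above them in siRNA replicate 2, and are given because of that. Psmc3 stood at 9.32 and 56.5 FPKM in the siRNA libraries, against 20.2 and 21.6 FPKM in the controls. Psmc6 stood at 24.7 and 52.0 FPKM in the siRNA libraries, against 29.1 and 34.7 FPKM in the controls. Psmc3 shares exon sequence with Slc39a13 on the opposite strand, and reads of such partners cannot be told apart where strand was not used.

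Of the 14 Psmd genes, 6 (42.9%) had both siRNA libraries below both controls, against 30.0% of all tested genes, and the lid subunits Psmd11 and Psmd14 had the smallest p-values among true subunits. Psmd11, a lid scaffold, stood at 83.1 and 125 FPKM in the siRNA libraries, against 268 and 206 FPKM in the controls, a log2 difference of -1.20 (SE 0.60, limma adjusted p = 0.745). Psmd14, the deubiquitinase of the lid, stood at 39.0 and 47.2 FPKM in the siRNA libraries, against 118 and 81.5 FPKM in the controls, a log2 difference of -1.17 (SE 0.63, limma adjusted p = 0.745). For both genes the groups did not overlap, and the siRNA means were 43.9% and 43.2% of the control means. Psmd12 (30.6 and 34.6 FPKM, against 54.5 and 52.6 FPKM in controls) and Psmd6 (22.7 and 28.0 FPKM, against 44.8 and 36.7 FPKM) were also lower in both siRNA libraries. The base scaffold Psmd1 was lower as well, at 5.26 and 2.43 FPKM in siRNA libraries, against 15.5 and 6.08 FPKM in controls. Psmd2, its partner scaffold, stood at 6.11 and 12.8 FPKM in siRNA libraries, against 17.8 and 12.4 FPKM in controls, and overlapped.

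Several Psmd genes split between the siRNA libraries, and these were picked out after their values were seen. Psmd4, a ubiquitin receptor of the regulatory particle with the CCAAT match upstream, stood at 28.1 FPKM in siRNA replicate 1 and 188 FPKM in siRNA replicate 2, against 80.6 and 69.8 FPKM in the controls. Psmd3, a lid subunit, stood at 2.48 FPKM in siRNA replicate 1 and 50.3 FPKM in siRNA replicate 2, against 4.25 and 5.67 FPKM in the controls. Psmd8, another lid subunit, stood at 17.4 and 63.6 FPKM in the siRNA libraries, against 40.4 and 57.3 FPKM in the controls. In each of these the lower value was in siRNA replicate 1 and the higher in siRNA replicate 2. Psmd7 stood at 33.2 and 58.9 FPKM in the siRNA libraries, against 83.4 and 58.4 FPKM in the controls. Psmd13 was the 1 tested member above both controls in both siRNA libraries, at 10.3 and 12.0 FPKM, against 4.03 and 9.34 FPKM in the controls. The error bounds of Psmd13 were wide, those of about 2 and 21 fragments in the siRNA libraries, against 12 and 4 in the controls. Its level is therefore uncertain, and it shares exon sequence with Sirt3 on the other strand.

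Psmd5, Psmd9 and Psmd10 carry subunit names but act as chaperones of the base and leave before the proteasome is finished. Psmd5 stood at 107 FPKM in siRNA replicate 1 and 6.57 FPKM in siRNA replicate 2, against 202 and 150 FPKM in the controls, a log2 difference of -2.62 (SE 1.15, limma adjusted p = 0.745). Psmd10 stood at 13.4 and 0.488 FPKM in the siRNA libraries, against 17.5 and 8.02 FPKM in the controls. Psmd9 stood on the other side, at 10.6 and 52.6 FPKM in the siRNA libraries, against 3.53 and 17.5 FPKM in the controls, a log2 difference of 1.45 (SE 1.09, limma adjusted p = 0.777). The siRNA libraries were far apart for all 3, and siRNA replicate 2 held the extreme value each time.

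The activators did not share a direction. Psme1 and Psme2 form the interferon-inducible activator ring. Psme1 stood at 2.11 and 0.145 FPKM in the siRNA libraries, against 15.1 and 10.99 FPKM in the controls, which was 8.65% of the control mean. Its log2 difference was -2.88 (SE 1.02, limma adjusted p = 0.745). The error bounds implied about 8 and 0 fragments for the siRNA values, against 105 and 105 for the controls. Psme1 shares exon sequence with Emc9 on the opposite strand. Psme2 stood at 19.2 and 11.7 FPKM in the siRNA libraries, against 32.0 and 52.3 FPKM in the controls, a log2 difference of -1.39 (SE 0.74, limma adjusted p = 0.745). Psme2b, 99.37% identical to Psme2 over 794 bases, stood at 23.1 and 28.2 FPKM in the siRNA libraries, against 32.3 and 88.9 FPKM in the controls. Reads may be split between the pair. Their sum was 42.3 and 39.9 FPKM in the siRNA libraries, against 64.3 and 141 FPKM in the controls. Psme2b also shares exon sequence with 9930111J21Rik1 on the same strand.

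The nuclear activators stood elsewhere. Psme3 stood at 21.9 FPKM in siRNA replicate 1 and 96.1 FPKM in siRNA replicate 2, against 69.9 and 32.3 FPKM in the controls, a log2 difference of -0.043 (SE 0.87). Psme4 stood at 39.7 and 107 FPKM in the siRNA libraries, against 43.6 and 21.7 FPKM in the controls, a log2 difference of 1.06 (SE 0.77, limma adjusted p = 0.772), with siRNA replicate 1 between the controls. Psmf1, which inhibits the core particle in biochemical assays, stood at 25.1 FPKM in siRNA replicate 1 and 0.483 FPKM in siRNA replicate 2, against 17.2 and 22.5 FPKM in the controls. Psmf1 thus lay above the controls in siRNA replicate 1 but below them in siRNA replicate 2, the reverse of the pattern in Psmd4 and Psmd3.

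All 5 core particle chaperones stood below both controls in siRNA replicate 2, against 50.6% of all tested genes. In siRNA replicate 1 this held for 3, Psmg1, Psmg3 and Psmg4, against 48.3%. Psmg4 passed the filter through the controls alone, so its place below both controls was fixed in advance. Psmg4, which with Psmg3 helps to build the alpha ring, stood at 0.784 and 0.816 FPKM in the siRNA libraries, against 6.81 and 9.19 FPKM in the controls (0.800 ± 0.0224 and 8.00 ± 1.68 FPKM, SD, n = 2 each). The error bounds implied about 2 and 4 fragments for the siRNA values, against 44 and 61 for the controls. Psmg3 stood at 1.57 and 1.97 FPKM in the siRNA libraries, against 3.58 and 8.74 FPKM in the controls. Psmg3 was thus lower in both siRNA libraries, whereas for its partner Psmg4 that place was fixed by the filter. Psmg1 stood at 11.5 and 8.26 FPKM in the siRNA libraries, against 17.2 and 23.1 FPKM in the controls, and its partner Psmg2 at 5.19 and 1.03 FPKM, against 6.80 and 1.80 FPKM. Pomp, the maturation factor that brings in the beta subunits, stood at 69.8 and 27.6 FPKM in the siRNA libraries, against 148 and 52.6 FPKM in the controls, with the siRNA replicate 1 value inside the control range.

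By class, every median log2 difference was negative, at -1.05 for alpha, -0.87 for beta, -0.66 for ATPase, -0.67 for Psmd, -1.22 for activator and inhibitor and -0.99 for chaperone genes. These signs held under each scaling tried (equal summed FPKM, median of ratios, quantiles, and a correction for transcript length), but the sizes did not. Over these scalings the medians were -0.62 to -0.55 for alpha, -0.52 to -0.16 for beta, -0.37 to -0.11 for ATPase, -0.31 to -0.12 for Psmd, -0.83 to -0.39 for activator and inhibitor and -0.82 to -0.57 for chaperone genes. The scalings moved the median of all tested genes to -0.08, -0.06, 0.01 and 0.00051 in the same order, against -0.39 as deposited. Relative to it, the members' median stood at -0.53 as deposited, -0.43 with equal sums, -0.44 with median of ratios, -0.53 with quantiles and -0.23 with the length correction. Summed FPKM of all 50 genes came to 1826 and 2107 in the siRNA libraries, against 4140 and 3060 in the controls. That was 0.306% and 0.483% of all FPKM in the siRNA libraries, against 0.606% and 0.440% in the controls, so as a share siRNA replicate 2 lay between the controls. Differences between classes were not tested, since members are not replicates and each class has the same 4 libraries. The chaperone median includes Psmg4, which passed the filter through the controls alone.

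**Figure D3:**
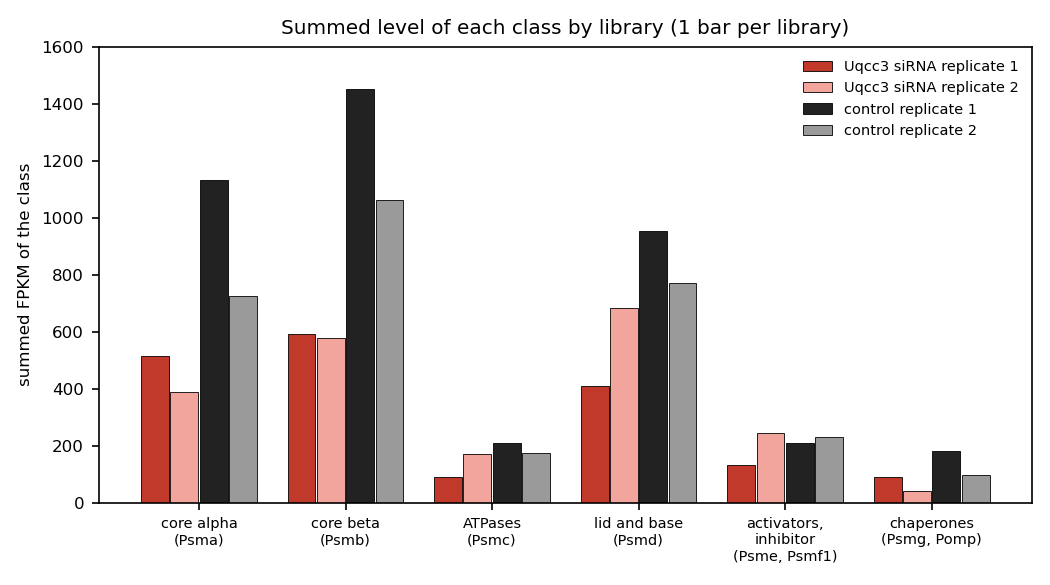
Summed FPKM of each class, as deposited, with 1 bar for each siRNA library (red shades) and each control library (grey shades). The alpha and beta sums of both siRNA libraries are below both controls, whereas the ATPase and Psmd sums are well below in siRNA replicate 1 only.

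Which classes were low differed between the siRNA libraries. The summed alpha level was 55.3% and 41.9% of the control mean in siRNA replicates 1 and 2, and the summed beta level 47.2% and 46.1%. The summed ATPase level was 46.6% and 89.3% of the control mean in siRNA replicates 1 and 2, the Psmd level 47.4% and 79.1%, and the activator and inhibitor level 59.8% and 111%. The chaperone level had the opposite order, at 64.0% and 28.6%. As a share of all FPKM, the ATPase sum was 0.0150% and 0.0394% in the siRNA libraries, against 0.0306% and 0.0253% in the controls, and the Psmd sum 0.0686% and 0.156%, against 0.140% and 0.111%. On that scale siRNA replicate 2 lay above both controls for both classes. There, Psmd4 alone gave 188 of the 682 FPKM in the Psmd sum. Psmc3 alone gave 56.5 of the 172 FPKM in the ATPase sum, so each place leaned on a single gene. The alpha and beta shares of siRNA replicate 2, at 0.0893% and 0.133%, lay below both controls. Those stood at 0.166% and 0.104% for alpha and 0.213% and 0.153% for beta. Core particle sums in FPKM were closer together in the siRNA libraries than regulatory particle sums.

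Subunit by subunit the same split was present. All 14 standard core subunits (Psma1 to Psma7 and Psmb1 to Psmb7) were below both controls in siRNA replicate 1, and 11 of 14 in siRNA replicate 2. Of 17 regulatory particle subunits, 16 were below both controls in siRNA replicate 1, but 8 were below and 6 above in siRNA replicate 2. For all tested genes the shares below both controls were 48.3% and 50.6% in siRNA replicates 1 and 2, and the shares above were 20.6% and 32.0%. The median log2 difference in siRNA replicate 2 was -1.14 for the core and -0.24 for the regulatory particle. The regulatory particle value turned to 0.41 with equal summed FPKM, 0.12 with median of ratios and 0.56 with the length correction, and stood at -0.023 with quantiles. The core value was -0.49, -0.78, -0.13 and -0.69 under the same 4 settings. In siRNA replicate 1 it was -0.92 for the core and -1.05 for the regulatory particle. The median transcript length was 1220 bases for the core genes and 1983 bases for the regulatory particle genes.

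**Figure D4:**
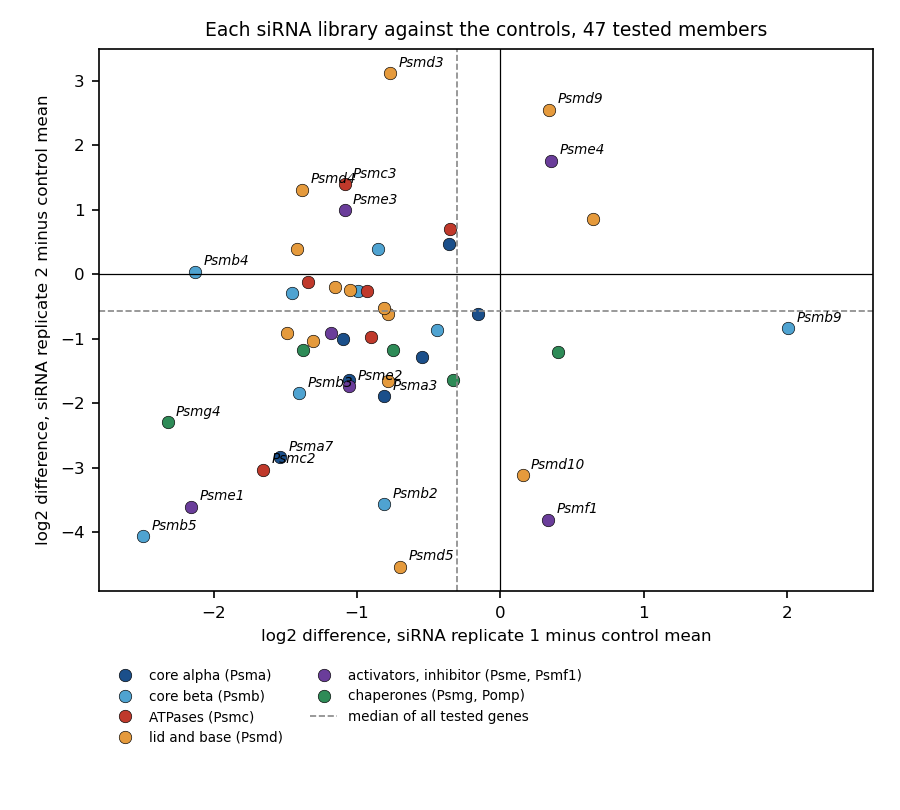
Log2 difference of each of the 47 tested members from the control mean in siRNA replicate 1 (horizontal axis) and siRNA replicate 2 (vertical axis), coloured by class, with dashed lines at the medians of all tested genes (-0.30 and -0.57). Points spread further along the vertical axis, and 8 members lie below both controls in siRNA replicate 1 but above both in siRNA replicate 2.

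Over all 47 tested members, siRNA replicate 1 lay below both controls for 39 (83.0%) and above both for 3 (6.38%), with a median log2 difference of -0.93 and an SD of 0.82. siRNA replicate 2 lay below both controls for 30 (63.8%) and above both for 11 (23.4%), with a median of -0.90 and an SD of 1.68. Over all tested genes the SDs were 0.92 and 1.82 in siRNA replicates 1 and 2, so the wider spread was not limited to proteasome genes. The 8 members below the controls in siRNA replicate 1 and above them in siRNA replicate 2 were 17.0% of the tested members, against 13.3% of all tested genes.

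Transcript length moved with the differences in siRNA replicate 2. As a description across genes, log length correlated with the difference at -0.0084 and 0.30 in siRNA replicates 1 and 2 over all tested genes. Over the 47 tested members alone the correlations were 0.35 and 0.18. Proteasome transcripts are short, with a median of 1883 bases against 2681 for all tested genes. The length correction removes the length trend of each library and also centres the library, so that the median of all tested genes is near 0. With it, the members' median log2 difference was -0.58 in siRNA replicate 1, 0.038 in siRNA replicate 2 and -0.23 in the pooled fit, and both siRNA libraries lay below both controls for 12 members (25.5%), against 19.9% of all tested genes. Quantile scaling, which centres without using length, gave a pooled median of -0.52 and 15 members (31.9%), against 18.7% of all tested genes. By class, the length-corrected medians in siRNA replicate 2 were -0.51 for alpha, 0.37 for beta, -0.75 for core chaperones, -2.13 for the 3 base chaperones and 0.56 for regulatory particle genes. In siRNA replicate 1 they were -0.61 for the standard core subunits and -0.70 for the regulatory particle. The part of transcript length in these differences was not tested.

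**Figure D5:**
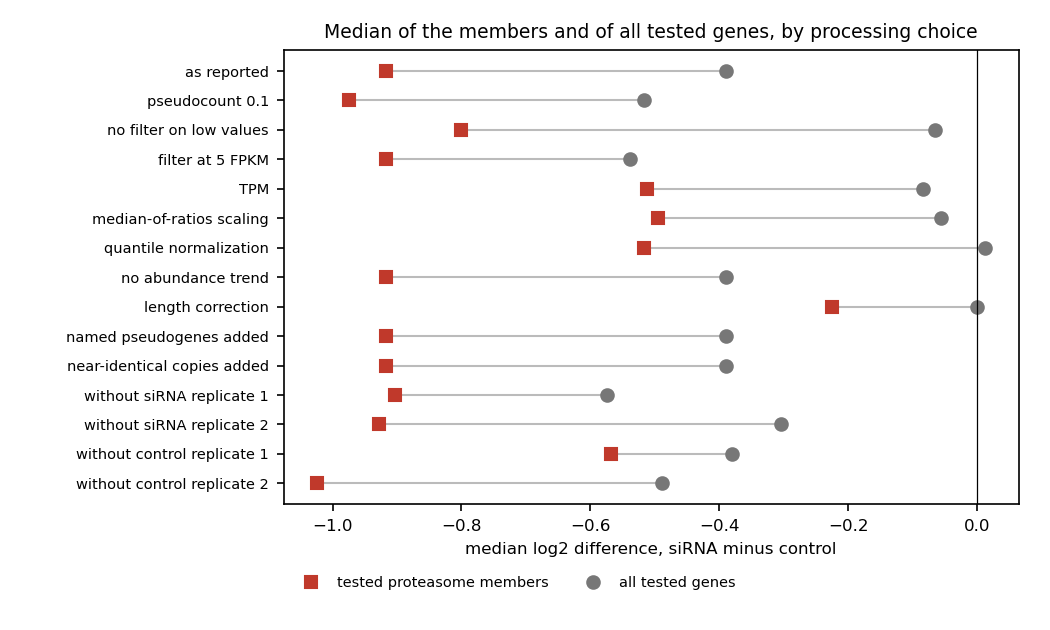
Median log2 difference between siRNA and control libraries for the tested members (squares) and all tested genes (circles) as reported and under each other processing choice. The members' median is below that of all genes under each choice shown, from -0.19 to -0.74 apart, and its own value runs from -1.02 to -0.23.

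The wider pathway was followed in 45 genes that act with the proteasome, of which 42 were tested and Paaf1, Ubqln4 and Ddi1 were not. limma called 0 of them. With an unadjusted p under 0.05, 2 were lower (4.76%, against 5.21% of all tested genes) and 0 were higher (against 0.743%). In each siRNA library, 14 partners (33.3%) stood under both controls, against a background share of 30.0%. Another 2 (4.76%) stood over both controls in each, against 8.60%. The partners' median log2 difference was -0.42, near the -0.39 of all tested genes. The members' counts were thus further from the background shares than those of the partners, a difference that was not tested.

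By role, the 4 ubiquitin genes had a median log2 difference of -1.02, with 3 of 4 below both controls in both siRNA libraries, where 30.0% of all tested genes were. Ubb, a polyubiquitin gene, stood at 376.5 and 97.7 FPKM in the siRNA libraries, against 868 and 1059 FPKM in the controls, a log2 difference of -2.31 (SE 0.75, limma adjusted p = 0.745). Nfya, the DNA-contacting subunit of NF-Y, stood at 10.8 and 0.898 FPKM in the siRNA libraries, against 26.7 and 36.7 FPKM in the controls, a log2 difference of -2.77 (SE 1.06, limma adjusted p = 0.745). The groups did not overlap for either gene. The 6 transcription factor genes together had a median of -0.57, and the main activator of proteasome genes, Nfe2l1, was at 15.8 and 58.4 FPKM in siRNA libraries, against 28.5 and 8.39 FPKM in controls, with siRNA replicate 1 between the controls and siRNA replicate 2 above them.

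The 5 peptidases that trim proteasome products had a median of -0.75. Npepps stood at 10.0 and 4.29 FPKM in the siRNA libraries, against 26.5 and 25.6 FPKM in the controls, a log2 difference of -1.82 (SE 0.83, limma adjusted p = 0.745). Lnpep stood at 2.25 and 0.877 FPKM in the siRNA libraries, against 7.52 and 8.04 FPKM in the controls, a log2 difference of -1.83 (SE 0.96, limma adjusted p = 0.745). Both were lower in both siRNA libraries with tight controls. The 5 shuttle receptors that bring ubiquitinated proteins had a median of 0.41, the 7 segregase genes (Vcp and its cofactors) -0.57, and the 13 proteasome-bound factors -0.35. Adrm1, a ubiquitin receptor on the regulatory particle whose symbol the naming rule does not reach, stood at 4.98 and 19.7 FPKM in siRNA libraries, against 24.1 and 11.2 FPKM in controls, with overlap.

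Leaving out single libraries changed the calls. Without siRNA replicate 1, limma called 8 members, with Psma7, Psmb2, Psmb5, Psmc2, Psmd5, Psme1 and Psmf1 lower and Psmd3 higher in the remaining siRNA library. It then called 9.68% of all tested genes lower and 2.24% higher, and the lone siRNA library is assumed to vary as the controls do. Without siRNA replicate 2 it called 0 members, with 12 lower and 0 higher at an unadjusted p under 0.05, against 7.27% lower and 0.864% higher of all tested genes. Psmb5 was below both controls by a log2 difference of -2.49 in siRNA replicate 1 and of -4.05 in siRNA replicate 2. Among the tested members that was the lowest difference in siRNA replicate 1, and in siRNA replicate 2 only Psmd5, at -4.53, was lower.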

How the data were processed

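Per the labels' protocols, RNA was primed with oligo(dT), amplified as full-length cDNA and sequenced in pairs. The FPKM values and their error bounds, in 1 deposited table per library, are as the authors computed them, per the file headers. Per the submitters' processing notes the tools were Cufflinks and Cuffdiff (both 2.2.1) after STAR (2.7.3a), with SAMtools (1.7), Trim Galore (0.6.5) and the build mm10. Whether strand was used in counting is not stated, so 11 members whose exons overlap a gene on the opposite strand are uncertain (Psma4, Psma5, Psmb7, Psmb8, Psmb9, Psmc3, Psmd1, Psmd3, Psmd9, Psmd13 and Psme1). For 4 members an exon overlaps a gene on the same strand, which the strand cannot separate. These are Psmb5 (Mir686), Psmd1 (Gm21972), Psme2b (9930111J21Rik1) and Psmg3 (Gm26938).

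Rows of 1 gene were summed. The members and gene lists were chosen with earlier results of these data known. Genes reaching 1 FPKM in 2 or more of the 4 libraries were tested with limma 3.58.1 (R 4.3.3) on log2(FPKM + 1), two-sided, with an abundance trend and a threshold of 0.05 after Benjamini-Hochberg adjustment. This scale understates the fold change of low genes. The test was also run on simulated data, with no outcome given here. Single-library differences are log2 values minus the control mean. FPKM holds no counts. The fragments behind a value, and the depth, were inferred from the width of its error bounds, read as counting error only. Where bounds are wider than counting alone would give, the inferred number is too low. In siRNA replicate 1, Psmd13 at 10.3 FPKM gave about 2 fragments, whereas Psmd9 at 10.6 FPKM gave about 92. The spread between libraries is not covered.

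Values were given for 4 members per class with the smallest unadjusted p, the cutting subunits and their counterparts, the activators and 4 partner genes, and other members were added after their values were seen. Near-identical copies were found with blastn 2.17.0 among GENCODE M21 transcripts (at least 95% over 200 bases). Alternatives were another pseudocount (0.1), no filter, a filter at 5 FPKM, TPM, median-of-ratios and quantile scaling, no trend, a length correction, added pseudogenes or copies, and leaving out each library.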

Additional observations from a re-analysis of the deposited data

How the results depend on the processing

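The count of members called was 0 in every alternative that kept all 4 libraries and 0 to 8 when 1 library was left out, the 8 being without siRNA replicate 1. Members with an unadjusted p under 0.05 numbered 7 as reported, 4 with TPM, median-of-ratios or quantile scaling or the length correction, and 0 to 18 when 1 library was left out. The 18, without siRNA replicate 1, were 13 lower and 5 higher, where 23.1% of all tested genes were lower and 10.3% higher. The count was 1 without control replicate 1 and 0 without control replicate 2. Members with both siRNA libraries below both controls numbered 26 as reported (55.3%, against 30.0% of all tested genes), 16 with TPM (34.0%, against 21.4%), 15 with quantiles (31.9%, against 18.7%), 12 with the length correction (25.5%, against 19.9%) and 26 to 39 when 1 library was left out, where 41.9% to 50.5% of all tested genes were. The members' median log2 difference of -0.92 became -0.51 with TPM, -0.50 with median of ratios, -0.52 with quantiles and -0.23 with the length correction, and was -1.02 to -0.57 when 1 library was left out. Relative to all tested genes it was -0.53 as reported, -0.74 with no filter and -0.38 with a filter at 5 FPKM. It was -0.23 with the length correction, and -0.62 to -0.19 when 1 library was left out. The partners' median of -0.42 became -0.076 with TPM, -0.066 with median of ratios, -0.013 with quantiles, -0.011 with the length correction, and -0.58 to -0.12 when 1 library was left out. The causes of these shifts were not tested.

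Of 52 genes followed, 34 kept their sign in all 14 alternatives, Psmg3 in the 13 that tested it, and 17 did not keep it. In the order TPM, median of ratios, quantiles and length correction, the log2 difference became 0.19, 0.18, 0.14 and 0.050 for Psmb7, 0.38, 0.37, 0.39 and 0.27 for Psme3, 0.39, 0.38, 0.51 and 0.40 for Psmd4, and 0.0397, 0.033, 0.0702 and 0.36 for Psma1. It became 0.26 with quantiles and 0.32 with the length correction for Psmg2, and with the length correction 0.015 for Psmc1, 0.16 for Psmb6 and 0.018 for Psmd6. With copies added it became -0.045 for Psma4. When 1 library was left out it was -0.36 to 0.47 for Psma4, -2.13 to 0.042 for Psmb4, -0.85 to 0.39 for Psmb7, -0.83 to 2.01 for Psmb9, -1.09 to 1.39 for Psmc3, -0.35 to 0.69 for Psmc6, -3.12 to 0.15 for Psmd10, -0.77 to 3.11 for Psmd3, -1.38 to 1.31 for Psmd4, -1.42 to 0.40 for Psmd8, -1.09 to 1.00 for Psme3, -3.80 to 0.34 for Psmf1 and -1.21 to 0.40 for Psmg2. No paired analysis was possible because the labels carry no replicate numbers. Members under 1 FPKM rest on few fragments, so levels there are not resolved.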
